A study of Mus musculus with 16 samples.

Results

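The testes compared here carried no transgene. They came from wild-type littermates of a pair of mouse lines that overexpress an RNA-binding protein in the testis, Musashi-1 in one line and Musashi-2 in the other. The wild-type littermates of the Musashi-1 line are called Wt(TgMsi1) and those of the Musashi-2 line Wt(TgMsi2), as in the sample titles, and their 8 arrays, 4 per group, were chosen from the 16 arrays of the study by those titles. The other 8 arrays are 4 from transgenic TgMsi1 testes and 4 from transgenic TgMsi2 testes. All mice were of the strain labelled B6xCBA, a cross of the C57BL/6 and CBA inbred strains, and were 3 months old. The labels name no promoter for either transgene. RNA of the whole organ was labelled and read on Illumina bead arrays, and every level below is a normalised log2 signal of 1 of 25697 probes. Each difference is the Wt(TgMsi1) mean minus the Wt(TgMsi2) mean on that scale, and each ± is the SD over 4 arrays. The labels do not say that the 4 arrays of a group came from separate mice, so the p-values measure the spread between these arrays, which may be technical. Line, litter and anything else handled line by line cannot be told apart in this design.

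The adult testis makes sperm in its seminiferous tubules. Spermatogonia, meiotic spermatocytes, round spermatids and elongating spermatids lie there beside the Sertoli cells that nurse them, and the tubules are wrapped by peritubular myoid cells. Leydig cells, which make testosterone, lie between the tubules together with vessels and macrophages. Wild-type littermates are the usual baseline for a transgenic line, and a comparison of the littermates of separate lines shows how far that baseline itself differs. In whole-organ RNA, fewer cells of a type and less RNA per cell cannot be told apart.

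The 2 wild-type groups were close to each other across the transcriptome. Within a group, arrays correlated over all probes with r between 0.989 and 0.995 in Wt(TgMsi1) and between 0.9921 and 0.9944 in Wt(TgMsi2), and arrays of different groups correlated with r between 0.9898 and 0.994. The median SD of a probe was 0.0659 in Wt(TgMsi1) and 0.0629 in Wt(TgMsi2). In a principal component analysis of the 8 arrays, the first 3 components held 24.1%, 19.9% and 16% of the variance. Wt(TgMsi1) replicate 2 lay farthest out on the first component, at -19.5, and Wt(TgMsi2) replicate 3 farthest out on the third, at -19. The groups overlapped on the first component, with -19.5 to 7.9 in Wt(TgMsi1) and 3 to 9 in Wt(TgMsi2). They also overlapped on the second, with -3 to 14.7 and -11.5 to -0.1. The plane of these 2 components did separate them. Every Wt(TgMsi1) array was higher on the second component than on the first, and every Wt(TgMsi2) array was lower. That split was chosen after the values were seen. Markers of the organ were present in both groups. The spermatid-specific glycolytic enzyme Gapdhs read 13.78 to 13.99 in Wt(TgMsi1) and 13.96 to 14.09 in Wt(TgMsi2), and the Sertoli cell gene Aard read 13.40 ± 0.20 and 13.56 ± 0.11, where the array median was 7.83. Probes for Msi1 and Msi2 are not among the named probes, so the genotype labels were not checked.

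**Figure D1:**
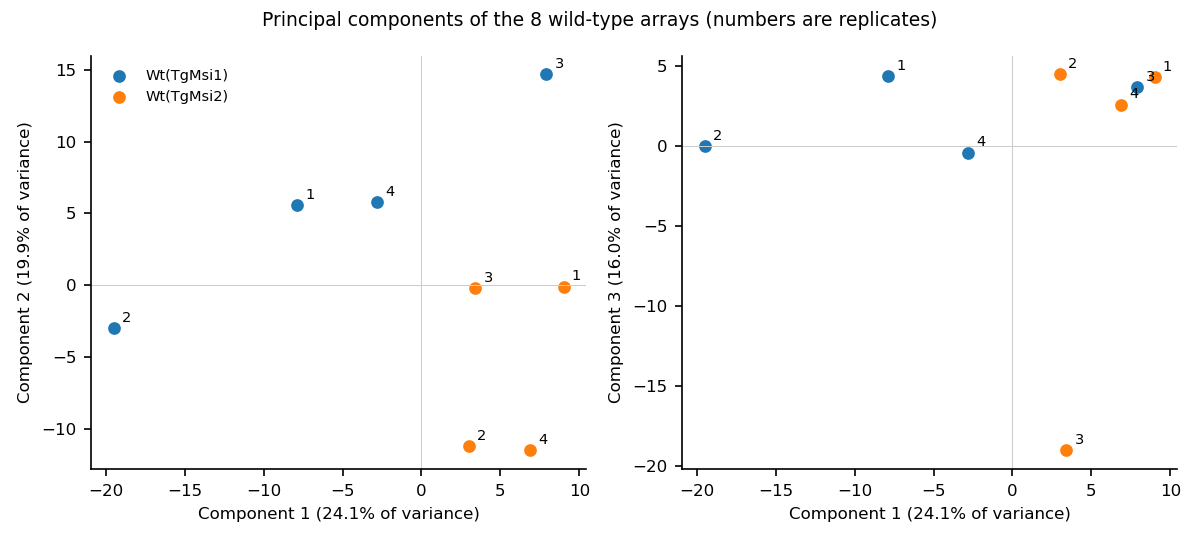
Principal components of the 8 wild-type arrays over all 25697 probes, component 2 (left) and component 3 (right) against component 1, in arbitrary units. Each point is an array with its replicate number. Wt(TgMsi1) replicate 2 lies alone at -19.5 on component 1 and Wt(TgMsi2) replicate 3 at -19 on component 3. On the left, every Wt(TgMsi1) array is higher on component 2 than on component 1, and every Wt(TgMsi2) array is lower.

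Of the 25697 probes, 1 passed an adjusted p of 0.05 between the wild-type groups in limma (0.00389%), 0 higher and 1 lower in Wt(TgMsi1). That probe, ILMN_1249346, has no gene name in the tables used here. Its signal was dim, near the array median of 7.83 in Wt(TgMsi1), and a filter on a mean log2 above 8 left it out. It read 7.70, 7.69, 7.84 and 7.71 in Wt(TgMsi1), against 8.23, 8.22, 8.30 and 8.20 in Wt(TgMsi2). The groups did not overlap, and the difference was -0.51 (95% interval -0.60 to -0.41, limma adjusted p = 0.0451). In the transgenic arrays, which this test did not use, it read 7.82, 7.74, 7.72 and 7.74 in TgMsi1 and 7.94, 8.06, 8.05 and 8.09 in TgMsi2, a difference of -0.28 (limma adjusted p = 0.0406). The wild-type call was lost when any array but Wt(TgMsi1) replicate 3 was left out, with limma adjusted p-values of 0.059 to 0.2.

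Differences over all probes ran from -1.60 to 1.83, with a median size of 0.0374. An unadjusted p under 0.05 was reached by 1872 probes (7.28%), of which 854 were higher (3.32%) and 1018 lower (3.96%) in Wt(TgMsi1). The 4 arrays of one group lay wholly beyond those of the other for 1082 probes (4.21%), 477 of them higher (1.86%) and 605 lower (2.35%), and 86 probes (0.335%) differed by more than 1.5-fold. The 95% interval of the difference lay within 1.5-fold either way for 25072 probes (97.6%) and within 2-fold for 25581 (99.5%). No deposited log2 value was below 7.37, so fold changes of dim probes may be understated.

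Gene names were available for 932 probes of 840 genes, and 0 of them passed. All of these names come from the 2 tables the authors deposited for their comparisons of transgenic with wild-type testes, so every named gene had been selected partly on the arrays compared here. An unadjusted p under 0.05 between the wild-type groups was reached by 159 of the 932 named probes (17.1%), 55 higher and 104 lower in Wt(TgMsi1). This share cannot be read as a property of those genes, because a wild-type array that departs from the rest moves both comparisons. The share was 52 of 246 (21.1%) in the Musashi-1 table and 110 of 700 (15.7%) in the Musashi-2 table.

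Among named genes lower in Wt(TgMsi1), the 5 smallest p-values belonged to Cox20, Mettl14, Sfrs16, Uhmk1 and Lexm. Cox20, an assembly factor of cytochrome c oxidase, read 9.91, 9.97, 10.12 and 10.02 in Wt(TgMsi1) and 10.31, 10.44, 10.39 and 10.43 in Wt(TgMsi2). The Wt(TgMsi1) arrays lay below all others, since the TgMsi1 arrays read 10.23 to 10.38 and the TgMsi2 arrays 10.21 to 10.31. The wild-type difference was -0.39 (95% interval -0.51 to -0.27, limma adjusted p = 0.123). Mettl14, a subunit of the methyltransferase that writes N6-methyladenosine on RNA, read 8.57, 8.76, 8.46 and 8.47 in Wt(TgMsi1) against 9.03, 9.09, 9.21 and 9.11 in Wt(TgMsi2). Its groups did not overlap, and the difference was -0.54 (limma adjusted p = 0.123). Sfrs16, a serine/arginine-rich splicing-related protein, read 10.02, 9.87, 10.21 and 10.34 in Wt(TgMsi1) and 10.83, 11.46, 11.05 and 11.14 in Wt(TgMsi2). That was the largest of the 5 differences, -1.01 or 0.496-fold, again without overlap (limma adjusted p = 0.127). Uhmk1, a kinase that phosphorylates a splicing factor, had means of 7.90 ± 0.12 in Wt(TgMsi1) and 8.34 ± 0.10 in Wt(TgMsi2), a difference of -0.43 (limma adjusted p = 0.192). Lexm had means of 11.02 ± 0.12 and 11.45 ± 0.10, and the same difference of -0.43 (limma adjusted p = 0.192). None of the 5 passed here. Sfrs16 and Cox20 passed when all 16 arrays shared the variance estimate (limma adjusted p = 0.0139 and 0.00605), and Sfrs16, Mettl14 and Uhmk1 when the variance followed an intensity trend with robust estimation (limma adjusted p = 0.0007, 0.0128 and 0.00942). Sfrs16 also passed among the probes with a mean log2 above 8 (limma adjusted p = 0.0346).

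Genes higher in Wt(TgMsi1) had larger p-values. Ano10, of the anoctamin family of membrane proteins, read 9.23, 9.26, 9.39 and 9.36 in Wt(TgMsi1) and 9.12, 9.08, 9.07 and 9.02 in Wt(TgMsi2), a difference of 0.24 with no overlap (limma adjusted p = 0.209). The ubiquitin ligase Cbl averaged 9.08 ± 0.12 in Wt(TgMsi1) and 8.77 ± 0.10 in Wt(TgMsi2), a difference of 0.31 (limma adjusted p = 0.284). Fancd2, which acts in the repair of DNA crosslinks, averaged 10.21 ± 0.09 and 10.02 ± 0.04, a difference of 0.19 (limma adjusted p = 0.319). Defb14 encodes a beta-defensin, one of the small antimicrobial peptides that male reproductive tissues also express. It read 10.66, 11.14, 11.28 and 11.07 in Wt(TgMsi1) and 9.49, 10.30, 10.46 and 9.35 in Wt(TgMsi2), so that its groups were separate although the Wt(TgMsi2) arrays themselves spanned more than 1 log2 unit. The Defb14 difference was 1.14 or 2.20-fold (95% interval 0.53 to 1.75, limma adjusted p = 0.293). The kallikrein Klk1b22, at 0.85, was the other gene among the 5 with the smallest p-values in this direction. Each of these 5 was separate in all 4 against 4 arrays and none passed. They were chosen by small p-values, which favours separate groups, and 1.86% of all probes were separate in this direction.

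**Figure D2:**
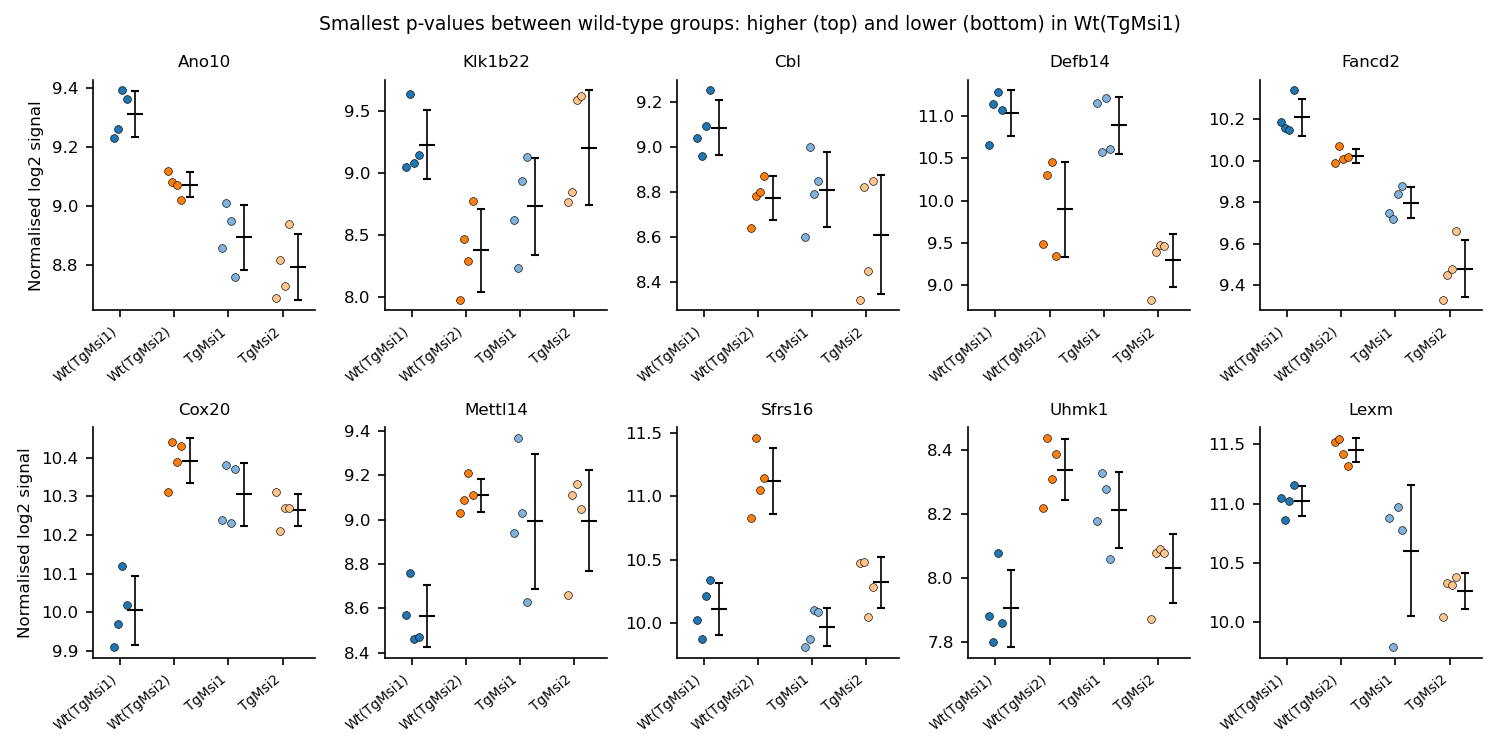
Normalised log2 signal of the 10 named genes with the smallest p-values between the wild-type groups, 5 higher (top) and 5 lower (bottom) in Wt(TgMsi1). Points are arrays, and bars are the mean ± SD of 4. The Wt(TgMsi1) and Wt(TgMsi2) points do not overlap in any of the 10 panels, which the choice by p-value favours. Cox20 of the transgenic groups lies near Wt(TgMsi2). Defb14 of TgMsi1 lies near Wt(TgMsi1), and the Defb14 mean of TgMsi2 (9.30) lies below that of Wt(TgMsi2) (9.90).

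The kallikrein 1 family had the largest median difference of the lists with more than 1 named probe. Its members are closely related secreted serine proteases encoded side by side on mouse chromosome 7, and several of them are known from Leydig cells of the adult mouse testis. The family had 9 named probes for 7 genes, and 7 of the 9 had an unadjusted p under 0.05, all higher in Wt(TgMsi1), where 3.32% of all probes and 55 of the 932 named probes were. The median difference of the 9 was 0.85, where the median of all named probes was -0.018 and that of all probes 0. The probes that could be aligned to each other are printed to show how alike the measured stretches are, in lower case with capitals at bases that differ from the Klk1b22 probe. They are given 5′ to 3′ as deposited, on the plus strand at chr7:51371598-51371647 for Klk1b22, chr7:51361261-51361310 for Klk1b21, chr7:51447135-51447184 for Klk1b24 and chr7:51475380-51475429 for Klk1b5. The deposited table names no genome build for these positions and does not say whether they lie in coding or untranslated exons.
Klk1b22: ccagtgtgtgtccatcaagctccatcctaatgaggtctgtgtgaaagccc
Klk1b21: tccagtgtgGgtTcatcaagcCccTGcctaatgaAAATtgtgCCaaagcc
Klk1b24: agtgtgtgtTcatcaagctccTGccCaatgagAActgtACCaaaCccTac
Klk1b5: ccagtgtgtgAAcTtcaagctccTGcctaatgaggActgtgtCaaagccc
The Klk1b5 probe differs from the Klk1b22 probe at 7 of 50 shared bases, the Klk1b21 probe at 11 of 49 and the Klk1b24 probe at 11 of 48. How far RNA of one member also binds the probe of another was not tested.

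Klk1b22 read 9.05, 9.64, 9.08 and 9.15 in Wt(TgMsi1) and 7.98, 8.47, 8.29 and 8.78 in Wt(TgMsi2). Its difference was 0.85 or 1.80-fold (95% interval 0.42 to 1.27, limma adjusted p = 0.269), with no overlap. One Klk1b21 probe, printed above, read 9.41, 10.06, 9.62 and 9.62 in Wt(TgMsi1) and 8.11, 9.34, 8.49 and 9.03 in Wt(TgMsi2). It was also separate, by 0.94, and the second Klk1b21 probe overlapped, with a difference of 0.81 (limma adjusted p = 0.404 and 0.551). Klk1b27 had the largest difference of any named probe, 1.35 or 2.54-fold, with 11.78, 12.58, 11.81 and 11.94 in Wt(TgMsi1) and 9.67, 11.80, 9.87 and 11.39 in Wt(TgMsi2). Its Wt(TgMsi2) arrays fell into a low and a high pair, as replicates 1 and 3 read more than 1.5 log2 units below replicates 2 and 4. The same replicates of Wt(TgMsi2) were the lowest for Klk1b24, at 9.10 and 9.49 beside 10.86 and 10.50, and for Klk1b4, which averaged 11.11 ± 0.21 in Wt(TgMsi1) and 10.40 ± 0.48 in Wt(TgMsi2). The Klk1b24 difference was 1.03, that of Klk1b4 0.70 and that of the second Klk1b27 probe 0.96 (limma adjusted p = 0.505 to 0.658). In Wt(TgMsi1), replicate 2 was the highest array for 6 of these 7 probes, the second Klk1b27 probe being the exception. Klk1b5 and Klk1b9 did not share the direction, at -0.29 (95% interval -0.63 to 0.06) and -0.18 (-0.54 to 0.19). The count of 7 became 4 when Wt(TgMsi1) replicate 2 was left out, 4 when replicate 1 of Wt(TgMsi2) was, and 3 when replicate 3 of Wt(TgMsi2) was.

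The kallikrein values of the transgenic testes ran the other way. For the 7 probes the TgMsi1 minus TgMsi2 difference was -0.66 to -0.21, so that in Klk1b27, for example, the TgMsi1 arrays read 11.29, 11.67, 11.98 and 11.73 and the TgMsi2 arrays 12.30, 11.87, 12.54 and 11.93. None of the 7 interaction contrasts passed (limma adjusted p = 0.22 to 0.325). These 8 arrays are not in the wild-type test, but all named kallikrein probes except Klk1b5 stand in the Musashi-2 table, whose selection used both TgMsi2 and Wt(TgMsi2) arrays. Steroid-producing Leydig cells were read beside them. The mean level over the 7 Leydig cell probes was 10.18 to 10.43 in Wt(TgMsi1) and 9.901 to 10.69 in Wt(TgMsi2), and 0 of the 7 had an unadjusted p under 0.05. Cyp11a1, the side-chain cleavage enzyme that starts steroid synthesis, read 9.76, 9.50, 8.05 and 9.25 in Wt(TgMsi2) replicates 1 to 4. Replicate 3 was thus low for Cyp11a1 and the kallikreins and replicate 1 for the kallikreins but not for Cyp11a1. Hsd17b3, Insl3 and Tspo are not given by array here, although Hsd17b3 also varied more in Wt(TgMsi2) (SD 0.63) than in Wt(TgMsi1) (SD 0.22). The remaining Leydig cell probes, Prlr, Vcam1 and Akr1cl, did not share one pattern in Wt(TgMsi2). Prlr was also lowest in replicate 3, at 8.88, while Vcam1 was highest there, at 10.30, and Akr1cl was lowest in replicate 4, at 11.92. The part of Leydig cells in the kallikrein values was not tested.

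**Figure D3:**
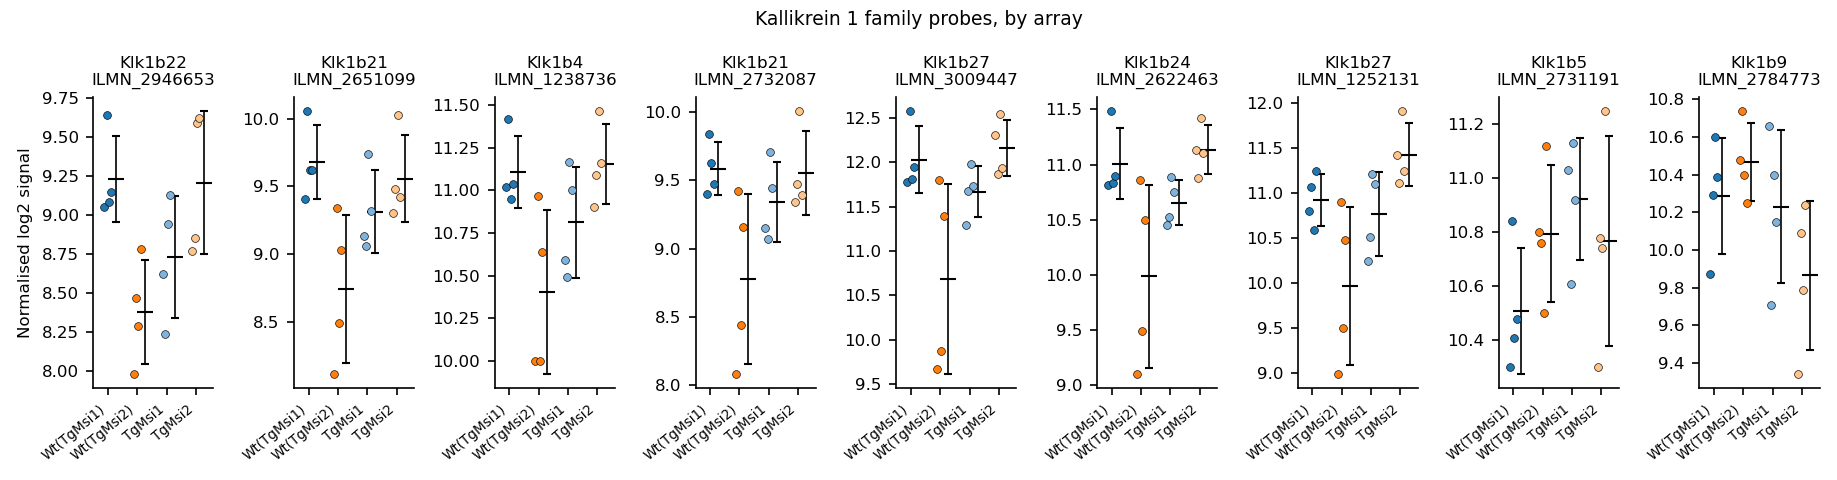
Normalised log2 signal of the 9 named kallikrein 1 family probes, ordered by p-value between the wild-type groups, with the probe ID under each gene. Points are arrays, and bars are the mean ± SD of 4. In the first 7 panels the Wt(TgMsi1) mean lies above the Wt(TgMsi2) mean by 0.70 to 1.35, and the TgMsi1 mean lies below the TgMsi2 mean.

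No probe of the cell type lists passed. Of 110 named probes in the lists of cell types and pathways, 0 passed (lowest limma adjusted p = 0.267), 75 had a 95% interval within 1.5-fold either way and 97 within 2-fold. Sertoli cell markers had 0 of 9 probes with an unadjusted p under 0.05 and a median difference of -0.05, from -0.18 for the beta-defensin Defb36 to 0.31 for Shbg, the androgen-binding protein. Leydig cell and steroid synthesis genes had 0 of 7 with a median of 0.08, among them Cyp11a1 at 0.16 (95% interval -0.60 to 0.91), Hsd17b3, which makes testosterone, at 0.08, and the Leydig cell hormone Insl3 at -0.10. Peritubular myoid and smooth muscle genes had 0 of 5 with a median of 0.05, including smooth muscle actin Acta2 at -0.06, 0.05 and 0.24 on its 3 probes. Wt(TgMsi2) replicate 3 was the lowest array of its group on all 5, and the mean level over them was 9.981 to 10.30 in Wt(TgMsi1) and 9.468 to 10.29 in Wt(TgMsi2). The endothelial receptor Robo4, the one endothelial probe, had -0.13 (-0.29 to 0.02). These intervals bound the differences and do not show that they were 0.

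Of 6 spermatid probes, 3 had an unadjusted p under 0.05, all lower in Wt(TgMsi1), where 3.96% of all probes and 104 of the 932 named probes were, and none passed. Both elongating spermatid probes had an unadjusted p under 0.05. Prm3, of the protamine family that late spermatids express, read 12.27, 11.57, 12.35 and 12.18 in Wt(TgMsi1) and 12.65, 12.49, 12.45 and 12.58 in Wt(TgMsi2), a difference of -0.45 with no overlap (limma adjusted p = 0.563). Replicate 2 of Wt(TgMsi1) was far below the other 3. Gapdhs had -0.12. Among 4 round spermatid probes 1 had an unadjusted p under 0.05, that of the sperm hyaluronidase Spam1, with 11.81 ± 0.06 in Wt(TgMsi1) and 11.99 ± 0.09 in Wt(TgMsi2), a difference of -0.18 with no overlap (limma adjusted p = 0.42). The spermatid transcription factor Crem had -0.14 (95% interval -0.31 to 0.04), and the other 2 round spermatid probes were slightly positive, the sperm membrane protein Spaca4 at 0.04 and the sperm calcium channel subunit Catsper4 at 0.03. The meiotic spermatocyte probes, for the kinase Aurkc and the cyclin Ccna1, had -0.11 and -0.12, and neither had an unadjusted p under 0.05. Spermatogonial markers had 0 named probes.

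The macrophage list held no common direction. Fcer1g, the signalling subunit shared by several Fc receptors, read 7.59, 7.64, 8.35 and 7.52 in Wt(TgMsi1) and 8.32, 8.69, 8.57 and 8.61 in Wt(TgMsi2). Wt(TgMsi1) replicate 3 reached into the range of the other group, and the difference was -0.78 or 0.584-fold (95% interval -1.19 to -0.36, limma adjusted p = 0.29). The other 5 macrophage and immune probes did not follow it: Laptm5 had 0.24, the lysozymes Lyz1 and Lyz2 had 0.27 and 0.15, and the invariant chain Cd74 had 0.02 and -0.01 on its 2 probes. Averaged over the 6 probes, the level was 8.632 to 9.059 in Wt(TgMsi1) and 8.689 to 9.004 in Wt(TgMsi2). MHC genes had 0 of 5 probes with an unadjusted p under 0.05. Acute phase and complement genes had 0 of 6, with a median of 0.29 and wide intervals, such as 0.47 (-0.20 to 1.13) for the siderophore-binding protein Lcn2. Of 6 interferon response probes, 5 had negative differences and 1 of these had an unadjusted p under 0.05, that of the exonuclease Isg20 (-0.34, limma adjusted p = 0.633). Over all probes 3.96% were lower at that threshold, as were 104 of the 932 named probes.

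Metabolic and housekeeping lists had few probes with a small p. Lysosomal genes had 0 of 13 probes with an unadjusted p under 0.05 and a median of -0.01, from -0.19 to 0.10. Glutathione and xenobiotic genes had 2 of 14, both lower in Wt(TgMsi1), where 3.96% of all probes and 104 of the 932 named probes were. One was Cyp2a12, a cytochrome P450, with 11.25, 10.87, 10.96 and 10.93 in Wt(TgMsi1) and 11.68, 11.49, 11.35 and 11.91 in Wt(TgMsi2), a difference of -0.60 (95% interval -0.90 to -0.30, limma adjusted p = 0.267). Its groups did not overlap, and it passed under the intensity trend with robust variance (limma adjusted p = 0.0409). The other was the glutathione transferase Gsta4, at -0.31 (limma adjusted p = 0.599). Lists of cholesterol synthesis (3 probes), adipose tissue (3), histones (3), ribosomal proteins (2), oxidative phosphorylation (2), heat shock (1), epididymis (1) and reported Musashi targets (1) had 0 probes with an unadjusted p under 0.05. In short lists, an unadjusted p under 0.05 with a positive difference was reached by 1 of 3 translation control probes (Prkra, a protein activator of the RNA-dependent kinase, at 0.20), 1 of 2 cell cycle probes (Fancd2) and 1 of 2 seminal vesicle and prostate probes (Klk1b24), and none of these passed. Over all probes 3.32% reached it with a positive difference, as did 55 of the 932 named probes. The seminal vesicle gene Svs5 had -0.15. The single circadian clock probe, for the clock output factor Dbp, had -0.24 (limma adjusted p = 0.523), and blood markers had 0 named probes.

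**Figure D4:**
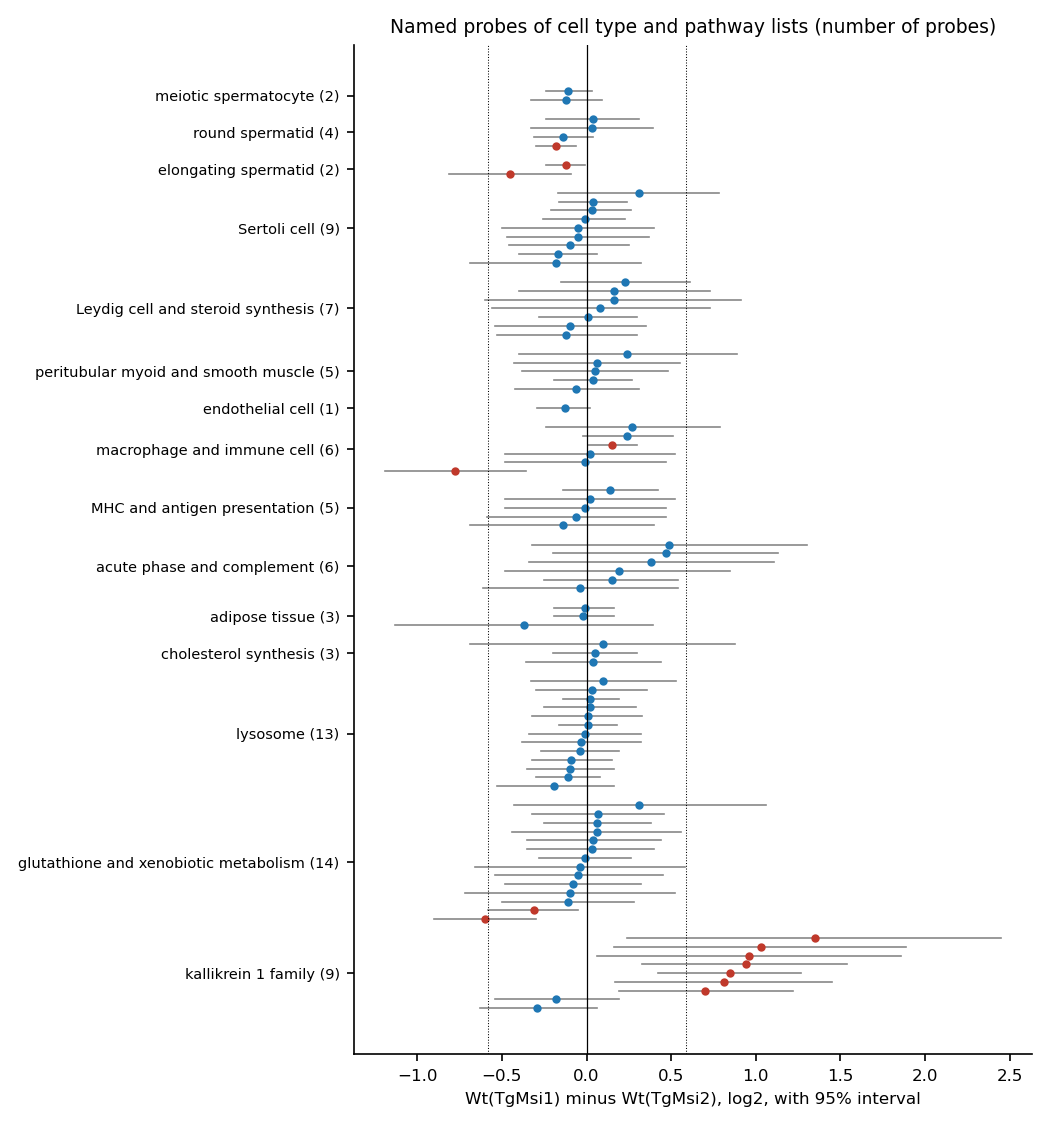
Difference between the wild-type groups, Wt(TgMsi1) minus Wt(TgMsi2) in log2 units, for each named probe of 15 lists, with its 95% interval in limma. Red points have an unadjusted p under 0.05 and blue points do not, dotted lines mark 1.5-fold either way, and the number of probes stands beside each list. Sertoli, Leydig and lysosomal probes sit around 0, and 7 of the 9 kallikrein probes lie at 0.70 or above.

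The same line difference could be read a second time in the transgenic arrays, TgMsi1 minus TgMsi2, which share no array with the wild-type comparison although all 16 arrays appear to have been normalised together. The transgenes enter only the second of these comparisons. Of all probes, 53.4% had the same sign in both comparisons. The share was 62.6% of the 1872 probes with an unadjusted p under 0.05 between the wild types, 69.2% of the 568 under 0.01 (2.21% of all probes, 0.852% higher and 1.36% lower in Wt(TgMsi1)) and 79.6% of the 98 under 0.001. Among the 568 probes, 105 also had an unadjusted p under 0.01 among the transgenic arrays with the same sign (0.409% of all probes) and 10 with the opposite sign. The share of 69.2% was 63.3% to 76.7% when 1 of the 16 arrays was left out. Probes are not independent of each other, so these shares describe the arrays and carry no p-value. Named probes did not follow, with 22 of 52 (42.3%) at 0.01, against 371 of 516 unnamed probes (71.9%). The named ones had been selected for a transgenic group that departs from its wild type, and the part of that selection in their share was not tested.

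**Figure D5:**
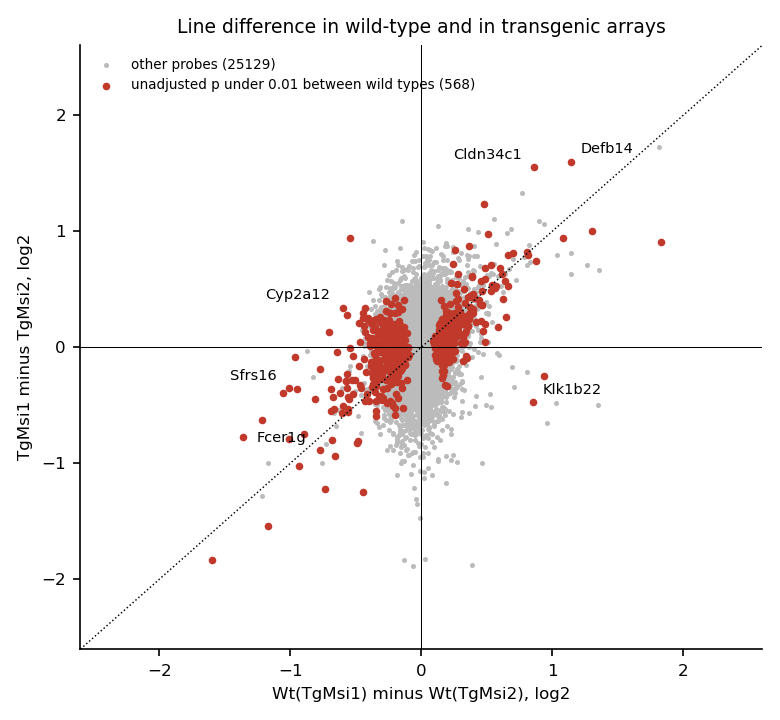
Line difference of each of the 25697 probes in the wild-type arrays (horizontal, Wt(TgMsi1) minus Wt(TgMsi2)) and in the transgenic arrays (vertical, TgMsi1 minus TgMsi2), in log2 units. Red points are the 568 probes with an unadjusted p under 0.01 between the wild types, and the dotted line marks equal differences. Most red points far from the centre lie along that line, and Klk1b22 lies off it.

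In 27 named genes an unadjusted p under 0.05 was reached in both comparisons with the same sign, 16 higher and 11 lower in Wt(TgMsi1) and in TgMsi1. These 27, and the unnamed probes that follow, were chosen after their values were seen. Over all 932 named probes, predicted genes included, 29 reached it in both comparisons with the same sign and 38 with opposite signs, so agreement did not prevail among named probes. Over all 25697 probes it was 443 (1.72%) with the same sign and 111 with opposite signs. Defb14 was the clearest of the higher genes. Its TgMsi1 arrays read 11.15, 10.58, 11.22 and 10.61 and its TgMsi2 arrays 8.83, 9.40, 9.48 and 9.47, a difference of 1.60 (limma adjusted p = 0.0402) beside 1.14 in the wild types. Both groups of the Musashi-1 line therefore lay above both groups of the Musashi-2 line. Cldn34c1, an X-linked member of the claudin family of junction proteins, had 0.86 between the wild types and 1.55 between the transgenics. Its wild-type arrays overlapped slightly, at 10.52, 10.17, 10.82 and 10.68 in Wt(TgMsi1) and 9.06, 9.85, 9.56 and 10.28 in Wt(TgMsi2). Wdr60, a dynein-2 chain that serves transport in cilia, had 0.46 and 0.36, Ambp, the precursor of bikunin, had 0.23 and 0.55, and Fancd2 had 0.19 and 0.32.

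Among the 11 genes lower in both, Fcer1g had -0.78 between the wild types and -0.89 between the transgenics. Its transgenic arrays read 8.25, 8.54, 8.23 and 8.18 in TgMsi1 and 8.92, 9.25, 9.35 and 9.23 in TgMsi2, with no overlap (limma adjusted p = 0.0402). Unlike in the wild types, the other macrophage probes of the transgenic arrays had the same sign, from -1.13 to -0.53. Sfrs16 had -1.01 and -0.35. The cysteine protease inhibitors of the cystatin family were represented by Cst3, which encodes cystatin C, at -0.48 and -0.81, and by Cstdc1 at -0.44 and -1.25. Dbp had -0.24 and -0.85, and Srp9, a subunit of the signal recognition particle, had -0.38 and -0.34 on one probe and -0.87 and -0.04 on the other, so its probes did not give the same account. Unnamed probes differed more. ILMN_2453946 read 8.26, 9.08, 8.16 and 8.48 in Wt(TgMsi1) and 9.81, 10.19, 9.72 and 10.67 in Wt(TgMsi2), a difference of -1.60 beside -1.83 in the transgenics. It did not pass between the wild types (limma adjusted p = 0.192), except among probes with a mean log2 above 8 (limma adjusted p = 0.043). ILMN_1238167 had 1.30 and 1.00, with Wt(TgMsi1) arrays between 11.86 and 12.12 and Wt(TgMsi2) arrays between 9.94 and 11.33.

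Other genes had a small p between the wild types and no counterpart in the transgenics. Cyp2a12 had -0.60 and 0.34, Mettl14 -0.54 and 0.00, Cox20 -0.39 and 0.04, and Uhmk1 -0.43 and 0.18. The difference between the wild-type and transgenic contrasts was tested as an interaction over all 16 arrays, where 2 of 25697 probes passed (0.00778%) and 2821 had an unadjusted p under 0.05 (11%). Cox20 and Uhmk1 did not pass, with limma adjusted p-values of 0.0726 and 0.0967. The 2 that passed had small wild-type differences, -0.07 in Tm9sf2, a transmembrane protein of the endomembrane system, and 0.05 in the unnamed ILMN_1377919. The TgMsi1 minus TgMsi2 contrast itself called 157 probes (0.611%), 92 higher (0.358%) and 65 lower (0.253%) in TgMsi1, and 4309 had an unadjusted p under 0.05 (16.8%; 7.91% higher and 8.86% lower). It called 0 probes without TgMsi1 replicate 1, 3 or 4 or TgMsi2 replicate 3.

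Named probes with an unadjusted p under 0.05 lay on each of chromosomes 1 to 19 and X, from 3.57% of those on chromosome 14 to 31.2% on chromosome 18. On chromosome 1 there were 9 of 52 named probes with a deposited position (17.3%), where the share of all named probes was 17.1%. All 9 were lower in Wt(TgMsi1), against 104 lower of 159 over all named probes. Chromosome 1 was picked after its values were seen, and chromosomes such as 18 (31.2%) and 9 (26.1%) had larger shares. Probes without a deposited chromosome, such as those of Fcer1g (-0.78) and Slamf7 (0.35), were not counted.

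Some genes varied widely among arrays of one group. The widest named genes, chosen after their values were seen, were the kallikreins Klk1b27 and Klk1b24, with pooled within-group SDs of 0.80 and 0.63, and then Serpina3g and Fads1, at 0.59 and 0.58. Serpina3g, a serine protease inhibitor, read 10.98, 9.71, 10.66 and 10.50 in Wt(TgMsi1) and 10.91, 9.65, 9.66 and 9.66 in Wt(TgMsi2). A single array, replicate 1, set its spread in Wt(TgMsi2). Adiponectin, Adipoq, read 10.76, 9.31, 10.88 and 10.53 in Wt(TgMsi1) and 10.59, 10.44, 11.11 and 10.81 in Wt(TgMsi2). Wt(TgMsi1) replicate 2 was its low array. In Wt(TgMsi2), replicate 3 was the low array of a group of enzymes: Cyp11a1 at 8.05 against 9.25 to 9.76 in the other 3, the fatty acid desaturase Fads1 at 10.90 against 12.19 to 12.60, and the epoxide hydrolase Ephx1 at 10.14 against 11.56 to 11.71. It was also the lowest array of its group on all 5 peritubular myoid and smooth muscle probes, such as one Acta2 probe at 10.92 against 12.18 to 12.20 and the tropomyosin Tpm1 at 9.03 against 9.77 to 10.02. Msmo1, a methylsterol monooxygenase of cholesterol synthesis, read 9.61, 9.07, 9.13 and 9.14 in Wt(TgMsi1) and 9.50, 8.59, 8.42 and 10.04 in Wt(TgMsi2), where no single array set the spread.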

How the data were processed

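Levels are the log2 values the authors deposited for 16 arrays. The submitters' processing notes name GenomeStudio. The sources used here do not give the normalisation; the sorted columns differ by at most 0.006, as quantile normalisation leaves them. Names came from the tables the authors deposited with the ratio of transgenic over wild type, whose log2 lay within 5.9e-06 of the difference of group means. Of their 932 probes, 849 matched RefSeq (GRCm38.p6) by Entrez number and 144 symbols were updated. Since 729 probe positions lie outside their GRCm38 gene and 56 inside, the build of the positions is unsettled. Another table's 128 per-array columns match no sample label and were not used. The planned normexp correction, detection filter and slide block need them and were not run. The probe numbers of that table (other identifiers), which the authors deposited beside gene symbols, only showed which list genes the design holds.

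The wild-type comparison was fitted with limma 3.58.1 (R 4.3.3) on the 8 wild-type arrays, the transgenic one on the other 8 and the interaction on all 16. P-values were adjusted by Benjamini-Hochberg over 25697 probes, with a threshold of 0.05. On simulated data for the wild-type comparison, the fit recovered 59 of 100 probes with a log2 change of 0.5 and 88 of 100 with a change of 1, and 6 of 153 calls were false. The changes were placed only in probes with a mean log2 above 8, with independent normal noise for each probe. Recovery in dimmer probes, or with fewer changed probes, was not tested. Bead arrays give no read depth, and 4 arrays a group limit the precision.

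The members, the 28 gene lists and the tests were chosen with earlier results of these data known. The rule for named genes took the 12 largest passing, non-overlapping differences in each direction or, where fewer than 5 passed, the 5 smallest p-values, up to 3 members of each list, up to 2 unnamed passing probes in each direction, and other probes of a gene so named. It left out 76 probes of predicted genes and clones. Other genes are said in the text to be chosen after their values were seen, as were Cgnl1 and further list members named with their values. Alternatives changed the arrays in the fit, the variance model, array weights, a filter on dim probes, the scaling and the replicate block, and left out single arrays. A few results are not reported here.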

Additional observations from a re-analysis of the deposited data

Results flagged for a closer look

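A single array stood apart from the other 3 of its group for 19 of 240 groups of 4 tested, by the gap to its nearest neighbour as a share of the group's range, set against Dixon's 95% critical value. Chance marks about 1 in 20 groups that were not chosen by their values. The 240 groups belong to probes chosen partly on these same arrays, some for a small p or a wide spread. That rate is therefore no benchmark for the 19. Wt(TgMsi1) replicate 2 accounted for 6 of the 19: high in Klk1b22 (0.83), Klk1b24 (0.885) and the neuronal transport adaptor Fez1 (0.90), and low in Cst3 (0.909), Cnst (0.848) and the interferon-responsive Epsti1 (0.866). In Wt(TgMsi1) replicate 3, ILMN_1249346 (0.854), Fcer1g (0.862) and Defb36 (0.83) were high. In Wt(TgMsi1) replicate 1, Msmo1 (0.875) was high and one Srp9 probe (0.857) was low.

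In Wt(TgMsi2), replicate 1 was high in Serpina3g (0.986) and low in the other Srp9 probe (0.89). Replicate 2 was high in Cst3 (0.892) and low in the histone genes H3c1 (0.885) and H4c11 (0.836). Replicate 3 was low in Ephx1 (0.903) and Acta2 (0.98), and replicate 4 was low in the lysosomal protease Lgmn (0.919).

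The line difference of the wild-type arrays differed from that of the transgenic arrays in 2 probes. In ILMN_1377919 the interaction was 0.44, from 0.05 in the wild types and -0.39 in the transgenics. In Tm9sf2 it was -0.64, from -0.07 and 0.57 (limma adjusted p = 0.0426 each). Tm9sf2 read 8.69 to 8.82 in TgMsi1 and 8.13 to 8.30 in TgMsi2, against 8.64 to 8.86 in Wt(TgMsi1) and 8.72 to 8.86 in Wt(TgMsi2).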

How the results depend on the processing

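The wild-type count of 1 became 11 with all 16 arrays in the fit, 53 with an intensity trend and robust variance, 7 among the 10789 probes with a mean log2 above 8 (fewer tests), 0 with the replicate block and 0 to 4 without single arrays. It was 1 with array weights or cyclic loess. Without both Wt(TgMsi1) replicate 2 and Wt(TgMsi2) replicate 3, an alternative chosen after seeing the data, it was 0. Of the 53 probes, 13 were higher and 40 lower, and 50 had the same sign in the transgenics; the named ones were Sfrs16, Cyp2a12, Mettl14, Uhmk1 and Cgnl1. The kallikrein count of 7 became 4 with the trend, 2 without both arrays and 3 to 7 without single arrays. The TgMsi1 minus TgMsi2 count of 157 became 823 in the fit of all 16 arrays, 1 with the replicate block and 0 to 433 without single arrays. The interaction count of 2 became 12 with the trend, 13 with the replicate block and 0 to 107 without single arrays. The causes of these changes were not tested. The wild-type same-sign share of 69.2% was 72.7% among brighter probes and 74.5% without TgMsi2 replicates 1 and 3. For single named probes, 0 called differences changed sign, 9 results crossed the threshold upwards and 9, all ILMN_1249346, downwards.

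Same-numbered wild-type arrays correlated in their deviations at 0.115, 0.126, -0.022 and -0.0361 for replicates 1 to 4. Replicates 1 and 2 correlated best with their own number, and replicates 3 and 4 did not. These values do not settle whether the numbers are a pairing, and the main fits used none. With the replicate block, ILMN_1249346 had a limma adjusted p of 0.206. Signal over background was not available, and dim probes may hide differences.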
